A study of Mus musculus with 6 samples.

Results

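The genes described here encode the machinery that charges tRNAs and runs the ribosome: initiation, elongation, release and recycling factors, the regulators and mRNA end binding proteins that act with them, and the aminoacyl-tRNA synthetases. They were chosen by symbol alone, as Eif and Eef genes followed by a digit without the Eif2ak kinases, synthetase genes, and Etf1, Gspt1, Abce1, Pabpc1, Pabpc4 and Larp1. The rule found 99 of the 14016 genes listed, or 0.706%, of which 63 were factors and 36 were synthetases. It left out Eprs, the fused glutamyl-prolyl-tRNA synthetase, which is given below beside the members. In the mouse annotation, 106 coding genes fit the rule. The 7 that were not listed were Eif2s3y, Eif4e1b, Eef2kmt and Eef1akmt1 to Eef1akmt4.

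The tissue was skeletal muscle after volumetric muscle loss, a surgical removal of a piece of muscle, in mice that received no implant. There were 3 WT mice and 3 mice labelled GATA-1 mutant, which the study calls ΔdblGATA and uses as an eosinophil-deficient strain, and all 6 muscles were taken on day 7. The study's methods name the quadriceps as the tissue and describe the surgery in female C57BL/6 WT mice of 10 to 12 weeks; age and sex of the ΔdblGATA mice were not given in the sources used here. The mutation is in the germline, so every cell of these mice carries it.

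The value available for each gene was the authors' mean log2 CPM, the counts of a gene scaled to a common library total, over all 6 libraries, both genotypes together. No value per library was analysed here, so a mean carries no error, the depth of each library is unknown, and neither the genotypes nor the order of neighbouring genes could be tested. To compare genes, log2 of the transcript length in kb was subtracted, and this log2 CPM per kb is the level given below. The length was that of the longest coding transcript unless stated otherwise. The range of a level over 3 choices of length (longest coding transcript, median coding transcript, longest coding sequence) is the measure of uncertainty used, and it holds no biological spread. In whole muscle, more cells of a type and more RNA per cell cannot be told apart.

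All 8 skeletal muscle fibre markers looked for were listed, with Myh4 at rank 2 and Acta1 at rank 4 of all genes by mean log2 CPM. The 3 markers of regenerating fibres (Myh3, Myh8, Myog), 4 of 5 macrophage markers, and the leukocyte, fibroblast and endothelial markers were listed as well, so the levels below are those of a mixed tissue. None of the 5 eosinophil markers (Siglecf, Epx, Prg2, Ccr3, Il5ra) was listed. To be listed, a gene needed a CPM above 1 in at least 3 libraries.

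As background, translation starts when eIF2, carrying GTP and the initiator tRNA, joins the small ribosomal subunit with eIF1, eIF1A and the large scaffold eIF3. The eIF4 factors bring that complex to the capped end of the mRNA, where eIF4E binds the cap, eIF4G bridges it to the ribosome and to the poly(A) binding protein, and eIF4A unwinds the leader. During elongation eEF1A delivers charged tRNAs, the eEF1B subunits recharge eEF1A with GTP, and eEF2 moves the ribosome along. Stop codons are read by eRF1 with eRF3, and ABCE1 splits the ribosome afterwards. Each tRNA is charged by its own synthetase, with a separate set of enzymes, also encoded in the nucleus, for most amino acids in mitochondria. Mature skeletal muscle is known for replacing eEF1A1 with its paralog eEF1A2, and regenerating muscle for high protein synthesis.

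The members lay high among the genes of this tissue. Their median level was 4.48 log2 CPM per kb, against 2.28 for all genes, whose lower and upper quartiles were 0.53 and 3.78. Of the 99, 89 lay above the all-gene median and 10 at or below it. Without length scaling the medians were 6.02 and 4.03 log2 CPM, and 87 members lay above. The lowest member was Eif5a2 at -1.13 and the highest Eef1a1 at 10.16 log2 CPM per kb. Back-transformed and summed, the members held 1.73% of the CPM of all genes, of which elongation factors gave 40.5%, the initiation factors proper 38.1% and the synthetases 9.43%.

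**Figure D1:**
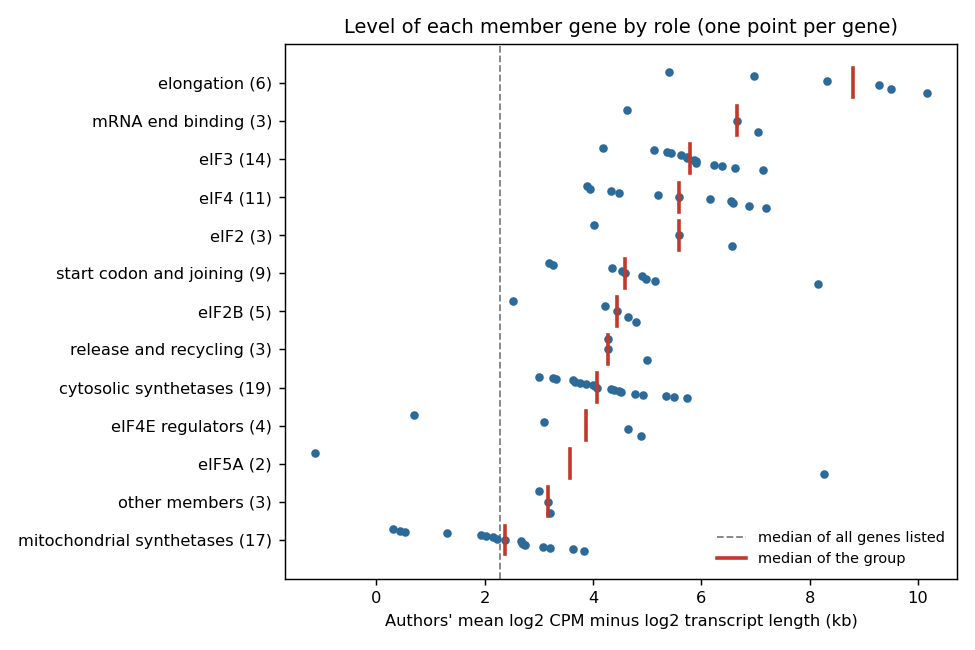
Each point is 1 of the 99 genes, placed by its level (the authors' mean log2 CPM over 6 libraries minus log2 transcript length in kb) and grouped by role, with the number of genes in parentheses; red bars are group medians and the dashed line is the median of all genes listed, 2.28. Elongation factors lie farthest right with a median of 8.80, and mitochondrial synthetases are centred near the dashed line with a median of 2.37.

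Elongation factors had the highest median of the roles. That of the 6 genes was 8.80 log2 CPM per kb, against 5.28 for 42 initiation factors (start codon and joining factors, eIF2, eIF2B, eIF3 and eIF4), a difference of 3.52 with the longest transcript and of 2.73 with the coding sequence. Of the 100 genes with the highest mean log2 CPM, 3 were members, and all were elongation factors: Eef1a1 at rank 42, Eef2 at rank 44 and Eef1a2 at rank 49.

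Eef1a1, the eEF1A paralog of most tissues, had a mean of 11.01 log2 CPM and a level of 10.16. Eef1a2, the paralog of mature muscle, heart and neurons, had a mean of 10.57 log2 CPM and a level of 9.51. Both paralogs were thus abundant in the injured muscle, and their levels differed by 0.66, or 1.58-fold, with a range of 0.44 to 1.72 over the 3 lengths. Of the 31-base words of the Eef1a1 transcript, 74.8% also occur in transcripts of other annotated genes, and 67.9% in pseudogenes, whereas no word of Eef1a2 does. The way reads of shared sequence were assigned can affect the Eef1a1 value, and its part in the difference was not tested.

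Eef2, the translocation factor, had a level of 9.28, which was 0.89 below Eef1a1. Without length scaling the gap between Eef1a1 and Eef2 closed to 0.10. Among the eEF1B subunits, Eef1g, the scaffold subunit, was at 8.32, Eef1b2, an exchange subunit, at 6.97 and Eef1d, the other exchange subunit, at 5.41. This order held with all 3 lengths, the Eef1g to Eef1b2 step ranging from 0.34 to 1.35 and the Eef1b2 to Eef1d step from 0.34 to 2.57. Eef1g shares 68.0% of its words with other genes, all of those words in pseudogenes. Eef2k, the kinase that inhibits eEF2, was at 3.16, and at 6.46 with the median transcript, below its substrate in both cases.

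**Figure D2:**
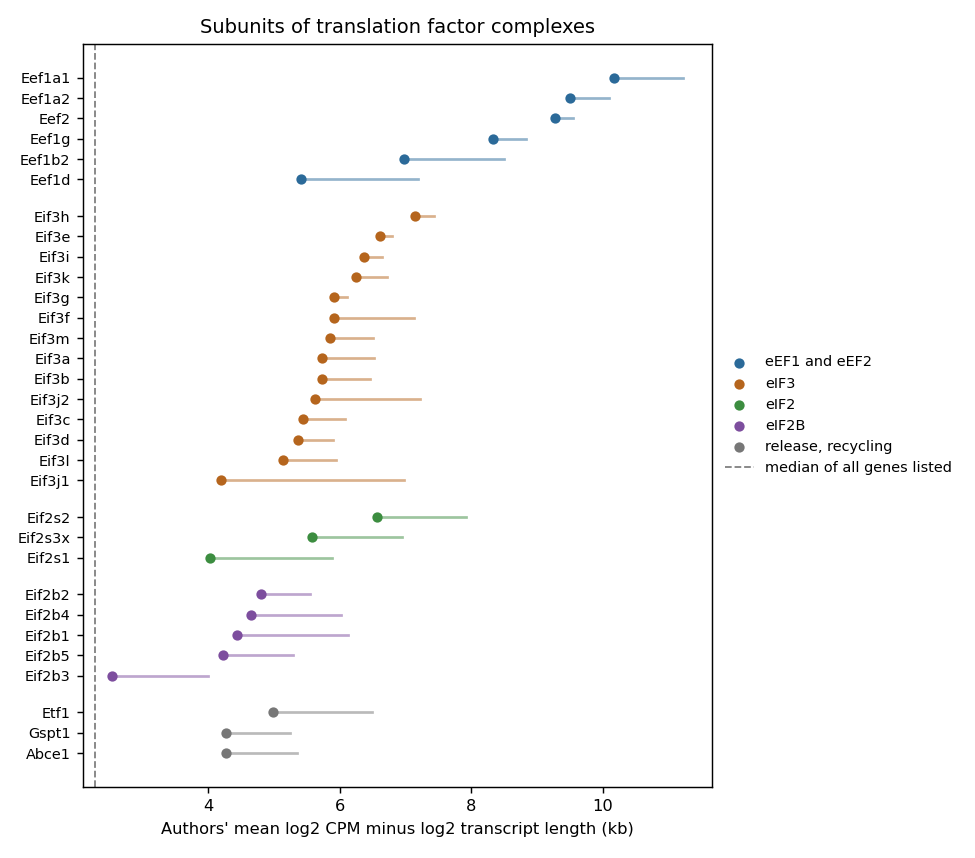
Levels of the elongation, eIF3, eIF2, eIF2B, and release and recycling genes. The point is the level with the longest coding transcript, the line runs over 3 choices of transcript length and is not a replicate error, and the dashed line is the median of all genes listed. The eIF3 subunits lie between 4.19 and 7.14, most of them within a narrow band, and Eef1a1, Eef1a2 and Eef2 lie above all eIF subunits drawn.

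The eIF3 genes, whose products form the scaffold of the small subunit complex, had high levels among the genes of this tissue. All 14 were listed and all 14 lay above the all-gene median, with a group median of 5.79. Eif3h was highest at 7.14, followed by Eif3e at 6.62, Eif3i at 6.37 and Eif3k at 6.24. Eif3g, Eif3f, Eif3m, Eif3a and Eif3b lay close together, from 5.91 for Eif3g and Eif3f through 5.86 for Eif3m to 5.73 for both Eif3a and Eif3b. With the longest transcript the lower levels were those of Eif3j2 at 5.62, Eif3c at 5.44, Eif3d at 5.36, Eif3l at 5.13 and Eif3j1 at 4.19. Highest and lowest were then 2.95 apart, or 7.74-fold. The place of the Eif3j genes turned with the length. With the coding sequence Eif3j2 was at 7.21 and Eif3j1 at 6.98, among the higher eIF3 genes. Eif3h was then highest at 7.43 and Eif3l lowest at 5.33, a range of 2.10. Both Eif3j copies encode the loosely bound j subunit and are nearly the same in sequence: 94.9% of the words of Eif3j2 also occur in other genes, 94.0% in Eif3j1. Their separate values are uncertain for that reason, and their difference of 1.43 fell to 0.24 with the coding sequence as length. Without the members that share most of their words, the eIF3 range was 2.01.

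The eIF2 genes, which encode the GTPase that brings the initiator tRNA, spanned 2.54, or 5.83-fold. Eif2s2, the β subunit, was at 6.57, Eif2s3x, the γ subunit, at 5.58, and Eif2s1, the α subunit whose phosphorylation shuts down initiation, at 4.03. Eif2s1 was the lowest with all 3 lengths, by 2.05 to 2.68 below Eif2s2 and by 1.07 to 2.17 below Eif2s3x. The eIF2B genes encode the exchange factor that reloads eIF2 with GTP. With the longest transcript they were at 4.80 for Eif2b2, 4.65 for Eif2b4, 4.44 for Eif2b1, 4.22 for Eif2b5, the catalytic subunit, and 2.53 for Eif2b3. Eif2b1 was instead highest with the median transcript (6.13) and with the coding sequence (5.58). Eif2b3 was lowest with all 3 lengths. The median of eIF2 exceeded that of eIF2B by 1.14, with values of 0.65 to 2.04 over the lengths. The eIF2α kinases, which are not members, were at 3.73 for Eif2ak1 (HRI), 2.08 for Eif2ak2 (PKR), 1.51 for Eif2ak3 (PERK) and 0.76 for Eif2ak4 (GCN2).

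Among the 9 genes for start codon selection and subunit joining the median was 4.59. Eif1, the gatekeeper of start codon choice, was highest at 8.16 and its paralog Eif1b was at 4.98, a 9.02-fold difference. Eif1ax, on the X chromosome, was at 4.35 and its autosomal paralog Eif1a at 3.25. With the coding sequence as length Eif1ax was at 7.93, below only Eif1 among the 9 genes. Eif6, which keeps the large subunit from joining early, was at 5.14. Eif5, the GTPase activator of eIF2, was at 4.91. Eif5b, the joining GTPase, was at 4.59, and Eif2a, an alternative initiator tRNA carrier that is no subunit of eIF2, at 4.54. Eif2d, with a role in reinitiation, was lowest at 3.20 with the longest transcript. With the median transcript Eif1a, at 3.80, lay just below Eif2d, at 3.82. The Eif2d relatives outside the members, Denr and Mcts1, were at 5.00 and 4.81.

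The eIF4 genes had a median of 5.58. Of the helicase paralogs, Eif4a2 was at 7.19, Eif4a1 at 6.88 and Eif4a3, a core protein of the exon junction complex, at 5.20. This order held with all 3 lengths, with Eif4a2 above Eif4a1 by 0.31 to 0.96. Eif4a1 shares 67.5% of its words with pseudogenes. The helicase cofactors Eif4b and Eif4h were at 6.16 and 5.58.

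With the longest transcript, the eIF4E genes lay below the median of the eIF4 group. Eif4e, which encodes the cap-binding protein, was at 3.89, the lowest of the 11 eIF4 genes, with Eif4e2 at 4.48 and Eif4e3 at 4.34. The longest Eif4e transcript sets that place: with the median transcript Eif4e2 minus Eif4e was -0.91 and Eif4e3 minus Eif4e was -2.09, so that Eif4e came first. Eif4e was at 6.43 with the median transcript and at 6.83 with the coding sequence, and with neither was it below the group median. Of the scaffolds, Eif4g1 was at 6.59, Eif4g2 (DAP5, which lacks the eIF4E site) at 6.55 and Eif4g3 at 3.95. Eif4g1 lay above Eif4g3 by 2.25 to 3.00, but the order of Eif4g1 and Eif4g2 turned with the length, to a difference (Eif4g1 minus Eif4g2) of -2.38 with the median transcript.

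**Figure D3:**
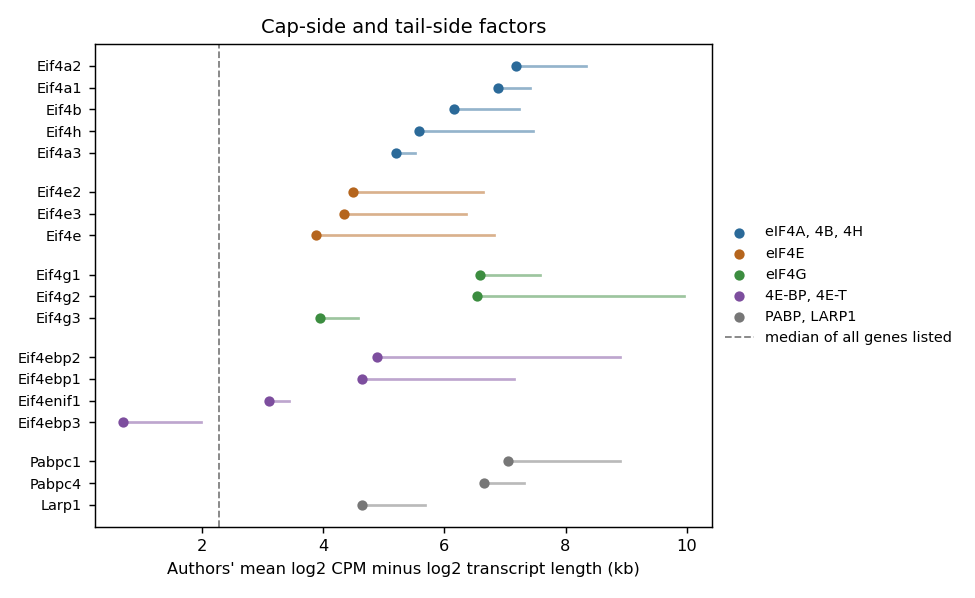
Levels of the factors that act at the cap and the poly(A) tail. Points use the longest coding transcript, lines run over 3 choices of transcript length and are not replicate errors, and the dashed line is the median of all genes listed. The lines of Eif4e, Eif4g2 and Eif4ebp2 are among the longest, and Eif4ebp3 is the only gene drawn whose point lies left of the dashed line.

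The 4E-BPs bind eIF4E and keep it from eIF4G until mTORC1 phosphorylates them. Eif4ebp2 was at 4.89 and Eif4ebp1 at 4.64, and Eif4ebp2 was higher with all 3 lengths, by 0.24 to 1.74. Eif4ebp3 was at 0.69, below Eif4ebp1 by 3.96, and shares 66.4% of its words with 1 other annotated gene. Eif4enif1 (4E-T), which carries eIF4E to the nucleus and to RNA granules, was at 3.10. The eIF4E kinases outside the members, Mknk1 and Mknk2, were at 3.68 and 2.25. At the other end of the mRNA, Pabpc1, the main poly(A) binding protein, was at 7.05 and Pabpc4 at 6.66, with 80.6% of the words of Pabpc4 shared. Larp1, which binds and represses mRNAs with a terminal oligopyrimidine (TOP) start, was at 4.63. The PABP regulators Paip1 and Paip2 were at 4.57 and 6.56.

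eIF5A carries hypusine, a modified lysine, and helps the ribosome through hard stretches such as prolines. Eif5a was at 8.27 and Eif5a2 at -1.13, a 676-fold difference and the widest of the paralog sets compared with each length. Its size depends on the long Eif5a2 transcript: the log2 difference of 9.40 was 7.58 with the coding sequence as length and 7.59 without length scaling. The enzymes that make hypusine, Dhps and Dohh, were at 3.61 and 4.80. For release and recycling, Etf1 (eRF1) was at 4.99, Gspt1 (eRF3) at 4.27 and Abce1 at 4.27. Etf1 was above the other two with all 3 lengths, by 0.36 to 1.26 over Gspt1 and by 0.72 to 1.14 over Abce1. Pelo and Hbs1l, which rescue stalled ribosomes, were lower, at 3.40 and 1.99. The remaining members were Eif1ad at 3.20 and Eef1e1, a scaffold of the multi-synthetase complex despite its name, at 3.01.

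Cytosolic synthetases had a higher median than mitochondrial ones. The 19 cytosolic genes, those without a 2 in the symbol, had a median of 4.07 and all 19 lay above the all-gene median. The 17 mitochondrial genes had a median of 2.37, near the 2.28 of all genes, and 9 of 17 lay above it. With the longest transcript the cytosolic set ran from Kars (lysine) at 5.74, Dars (aspartate) at 5.50 and Gars (glycine) at 5.36 down to Nars (asparagine) at 3.33, Qars (glutamine) at 3.25 and Lars (leucine) at 3.00. With the median transcript Qars was at 5.35, beside Gars at 5.36, and Tars (threonine) was lowest at 3.64. Kars and Gars are known to make the mitochondrial enzyme as well, from the same gene. With the longest transcript the mitochondrial set ran from Lars2 at 3.83, Iars2 at 3.64 and Rars2 at 3.21 down to Wars2 at 0.53, Pars2 at 0.44 and Mars2 at 0.31. The last place of Mars2 depends on its long transcript. With the coding sequence Mars2 was at 2.99 and Pars2 was lowest at 1.43.

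For the same amino acid, 15 pairs of member genes were compared, with both phenylalanine subunits set against Fars2. The cytosolic gene was higher in 14 pairs, and in 12 with every length. The median difference was 1.73. With the longest transcript the widest of these pairs were methionine, where Mars was at 4.39 and Mars2 at 0.31, and tryptophan, with Wars2 at 0.53 and Wars above it by 3.47. This ranking was not kept with the other lengths. The methionine difference of 4.08 was 1.52 with the coding sequence, where serine (3.11) and alanine (2.44) came first, and with the median transcript valine (4.07) and serine (3.51) passed tryptophan (2.63).

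Leucine went the other way. Lars minus Lars2 was -0.82 with the longest transcript, -2.41 with the median transcript, -1.18 with the coding sequence and -0.79 without length scaling, so Lars2 was the higher in each case. The isoleucine and threonine pairs were close, at 3.87 for Iars and 3.64 for Iars2, and at 3.64 for Tars and 3.09 for Tars2, and their order turned with the length. The other pairs were cytosolic over mitochondrial by 1.29 for cysteine (Cars), 1.33 and 1.78 for the phenylalanine subunits Farsa and Farsb, 1.57 for arginine (Rars), 1.65 for alanine (Aars), 1.73 for valine (Vars), 1.81 for histidine (Hars), 1.88 for tyrosine (Yars), 2.02 for asparagine (Nars) and 2.23 for serine (Sars).

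**Figure D4:**
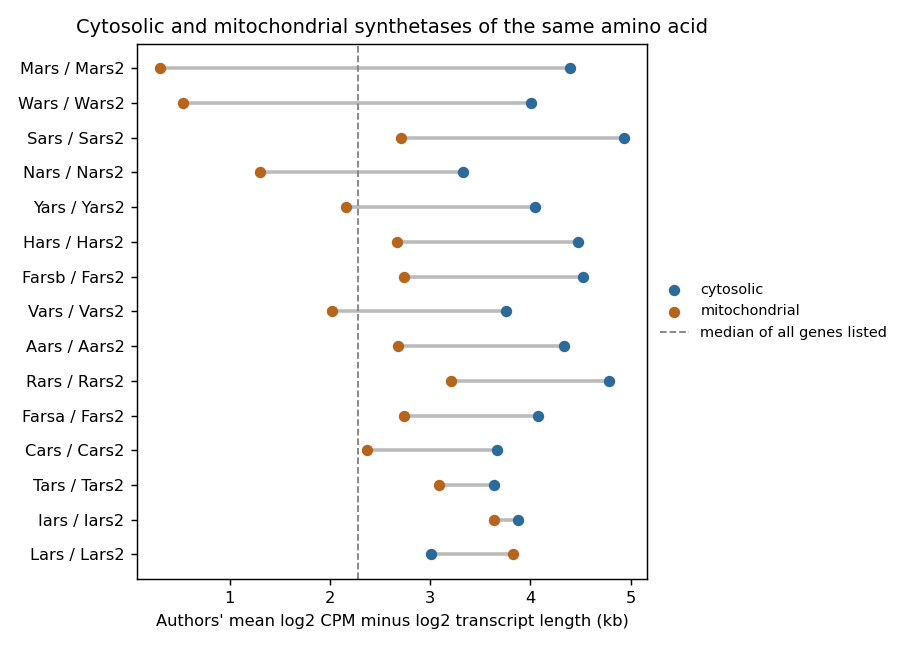
Levels of the cytosolic (blue) and mitochondrial (brown) synthetase of the same amino acid, with the longest coding transcript, for the 15 pairs compared; the dashed line is the median of all genes listed. The blue point is to the right in 14 pairs, and the order is turned for Lars and Lars2.

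In the multi-synthetase complex, which holds several cytosolic synthetases on 3 scaffold proteins, the 11 genes had a median of 4.78. With the longest transcript, the scaffolds Aimp2 and Aimp1 were at 6.36 and 6.13, above every synthetase of the complex, and Eef1e1 was at 3.01. This order depends on length: without length scaling Eprs, Kars and Dars lay above both Aimp2 and Aimp1, Dars only just above Aimp2. Other choices of transcript length were not compared for these scaffolds. With the longest transcript Eprs was at 5.76, beside Kars at 5.74 and Dars at 5.50. Mars at 4.39, Iars at 3.87, Qars at 3.25 and Lars at 3.00 were lower. Eprs exceeded Ears2, the mitochondrial glutamate enzyme at 2.22, by 3.54, and Pars2 by 5.32. Tarsl2, a second cytosolic threonine enzyme outside the rule, was at 4.14.

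All 29 pathway genes looked for outside the members were listed. The 8 mitochondrial translation factors among them had a median of 3.84, above the 2.37 of the mitochondrial synthetases. Tufm, the mitochondrial counterpart of eEF1A, was highest at 6.08, and Gfm1, the counterpart of eEF2, was at 4.36. Gfm2 at 3.91, Tsfm at 3.94, Mtif2 at 3.77 and Mrrf at 3.14 followed, and Mtif3 at 1.96 and Mtrf1l at 1.79 were lowest. Eefsec, the selenocysteine elongation factor, was at 1.01.

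The start regions of the member genes were searched for a short element and for TOP-type starts, since amino acid shortage is known to act on synthetase genes through ATF4 with C/EBP partners, and mTORC1 on many translation factor mRNAs through their TOP starts. RefSeq start windows (GRCm38.p6, 250 bases before to 50 after the start) were found for 74 of the 99 members. The letters TGATGCAA, a form of the ATF4 and C/EBP response element, searched on both strands, occurred in the windows of 4 members, or 5.41%, against 0.744% of 10890 listed genes and 0.895% of 32851 windows. The 4 were Aars, Iars, Tars and Yars, 4 of the 12 cytosolic synthetases with a window, and no member of another role held it. The element was chosen after levels of these genes were seen. The 30-base stretches of Iars, Tars and Yars show the 8 matching letters in capitals, 5′ to 3′ on the strand of the gene, to let their place and orientation be compared:
Iars: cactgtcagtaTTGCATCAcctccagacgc
Tars: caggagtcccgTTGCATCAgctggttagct
Yars: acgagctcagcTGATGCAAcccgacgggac

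The Iars stretch is at chr13:49682126-49682155, plus strand, with the first capital at 8 from the annotated start. The Tars stretch is at chr15:11399655-11399684, minus strand, with the first capital at -15. The Yars stretch is at chr4:129189895-129189924, plus strand, with the first capital at 4. The element is read on the strand of the gene in Yars and on the opposite strand in Iars and Tars. The 4 genes had a median level of 3.96, against 4.73 for the 8 cytosolic synthetases whose windows lack these letters. A match is a string of letters and shows no binding.

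A TOP-type start was taken as a C followed by at least 4 bases that are all C or T, beginning within 5 bases of the annotated start on the strand of the gene. It was found in 18 of 74 members, or 24.3%, close to the 23.6% of listed genes counted in the same way. Counted by window and not by gene, 18.3% of all windows held one. With the search widened to 20 bases it was found in 40 members, or 54.1%, against 54.9% of listed genes. Members with and without a TOP-type start within 5 bases had median levels of 4.43 and 4.51. Of the 4 elongation genes with a window, 1 (Eef1a1) held such a start within 5 bases, and Eef1a2, Eef1b2 and Eef2 did not. The annotated start decides whether such a run counts, so the share does not tell how many members make TOP mRNAs.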

How the data were processed

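Poly(A) RNA of 6 injured muscles (3 WT, 3 GATA-1 mutant) was sequenced with ERCC spike-in. Per the study's methods, the authors pseudoaligned paired reads with kallisto, assigned genes with ensembldb, computed CPM with edgeR, kept genes with a CPM above 1 in at least 3 samples, log transformed and applied TMM, then ran limma; the submitters' notes name GRCm39 (mm39). Whether counts were scaled by length on import is not given in the sources used here.

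The deposited table gives, per gene, the authors' mean log2 CPM over all samples, printed here as the authors' mean. Its other 5 columns hold the authors' WT and mutant comparison (fold change, t, p-value, adjusted p-value, B) and were not used. It holds no value per sample, so the planned genotype comparison was not run, no test was made and depth is unknown. There were 0 unused per-sample columns.

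Lengths came from GENCODE M21 (GRCm38): 13943 of 14016 genes (99.5%) and all 99 members matched, 485 through an older symbol. Shared sequence is the percent of 31-base words of the longest coding transcript found in another annotated gene's transcripts. Start windows came from RefSeq. Python 3.11.15, pandas 2.3.3 and numpy 2.4.6 were used, and functions were tested on simulated data. Members and lists were chosen with earlier results of these data known. Genes were named by role: the extremes of each role, all subunits of eIF2, eIF2B, eIF3, eEF1 and the release factors, paralog sets, synthetase pairs, and a list of other pathway genes; further members of a role were added for completeness. No residue comparison of proteins was made, and some pairs and start sequences are not reported here.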

Additional observations from a re-analysis of the deposited data

How the results depend on the processing

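No paired analysis was possible because the table analysed holds no value per sample, and for the same reason the replicate block, leaving out each replicate, and another scaling, pseudocount or low-value filter in the genotype comparison were not run. Values below are log2 differences, given for the median coding transcript, the longest coding sequence and no length, in that order. Members over all genes (2.21) gave 2.44, 2.08 and 1.99, and 1.31 among genes of at least 3 log2 CPM. Elongation over initiation (3.52) gave 2.87, 2.73 and 3.31. Cytosolic over mitochondrial synthetases (1.70) gave 2.08, 1.76 and 1.83, and 1.40 among genes of at least 3. eIF2 over eIF2B (1.14) gave 0.65, 2.04 and 1.96. Eef1a1 over Eef1a2 (0.66) gave 1.72, 0.44 and 0.44, and Eef1a1 over Eef2 (0.89) gave 1.95, 0.995 and 0.10. Eif4ebp1 minus Eif4ebp2 (-0.24) gave -0.93, -1.74 and -1.78. The eIF3 range (2.95) was 2.10 with the coding sequence and 2.04 without length. Without the 8 members that share most of their words, an alternative chosen after seeing the data, members over all genes and elongation over initiation were 2.16 and 2.95 and the eIF3 range 2.01. The TOP-type share of members minus that of all windows (5.98 percentage points) was 1.55 at the exact start and 4.65 within 20 bases, but sets a share per gene against a share per window. Against listed genes, also counted per gene, the differences were 0.70 within 5 bases, 1.08 at the exact start and -0.90 within 20 bases.

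Other lengths were also tried for 37 pairs, likewise chosen after seeing the data, and 30 kept their order. Eif4e2 minus Eif4e was -0.91 and -0.18 with the median transcript and the coding sequence. Eif4e3 minus Eif4e was -2.09, -0.47 and -0.54, Eif4g1 minus Eif4g2 was -2.38, -1.28 and -0.46, and Iars minus Iars2 was -0.62, -0.39 and -0.070. With the median transcript Eif4ebp2 minus Eif4e was -0.86 and Tars minus Tars2 -1.22. With the coding sequence Eif4b minus Eif4h was -0.22. These turns come from the length alone, since the mean log2 CPM is the same throughout.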
